A study of Mus musculus with 21 samples.

Results

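Microglia carry a small set of ion channels through which they patrol tissue and respond to injury, and 8 of their genes are described here: Kcnk13, Kcnk6, Kcnj2, Kcna3, Kcnn4, Hvcn1, Trpm2 and Trpv2. They were taken from a table of 55487 genes by matching its Ensembl identifiers, without version, to these symbols, and all 8 were found. All 8 also passed the filter on low counts that left 14741 genes for testing. Kcna3 passed it through its LPS libraries, since 3 of 11 saline libraries reached the level of the filter where 4 libraries were needed, and Kcnn4 passed it with 3 saline libraries and 1 LPS library, MIA LPS replicate 4, which stands apart as described below.

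The cells were microglia, the resident macrophages of the brain, obtained from striatal tissue of male mice, 8 to 10 weeks old, by a flow cytometry sort for live, CD11b-positive, P2RY12-positive cells with low CD45. Their dams had either served as controls or undergone maternal immune activation (MIA). The sources used here give neither the agent used on the dams nor the mouse strain. Each offspring received lipopolysaccharide (LPS), a component of bacterial walls, at 4500 endotoxin units per gram by intraperitoneal injection, or saline, and cells were taken 18 hours later. Polyadenylated RNA was read in 6 libraries of control offspring given saline, 5 of control offspring given LPS, 5 of MIA offspring given saline and 4 of MIA offspring given LPS, and 1 more MIA saline library, titled excluded by the submitters, was left out.

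The 4 groups thus differ in maternal treatment and in the adult injection, and share tissue, sort, sex and age. Litter membership is not stated in the labels, and they give an ID number that some saline and LPS libraries share without saying what it marks. No ID number occurs in both maternal groups, and the batch 1 MIA libraries used carry only the ID numbers 03, 09 and 11. Maternal treatment and whatever the ID number marks thus cannot be fully told apart. The p-values therefore reflect only how much these samples vary among themselves. One library stood apart: MIA LPS replicate 4, the single library of batch 2, had a count for 12285 genes, against 18035 to 19612 genes in the other libraries used. It is given beside the results and was absorbed by the batch term, so every comparison rests on 19 batch 1 libraries with 9.85 M to 19.0 M counts each (M, units of 1000000). Of 9 sort and resting microglia genes, all were detected, and 6 fell and 0 rose after LPS in each maternal group. Over all genes tested 21.3% were called lower in control and 18.3% in MIA offspring. P2ry12, the receptor used in the sort, fell by 3.39 on the log2 scale in control offspring (edgeR adjusted p = 2.76e-14) and by 3.33 in MIA offspring (edgeR adjusted p = 5.07e-12).

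As background, the channels divide by what they conduct. Kcnk13 encodes THIK-1, the tandem pore potassium channel that sets the resting potential of microglia and is needed for the surveillance movements of their processes, and Kcnk6 encodes TWIK-2, a related channel through which macrophages lose potassium when extracellular ATP opens P2X7 receptors. Loss of cell potassium is a trigger of the NLRP3 inflammasome, which matures interleukin 1 beta. Kcnj2 encodes the inward rectifier Kir2.1, Kcna3 the voltage-gated channel Kv1.3, which is known from activated microglia and T cells, and Kcnn4 the calcium-activated channel KCa3.1, which senses calcium through bound calmodulin. Hvcn1 encodes Hv1, a voltage-gated proton channel that carries away the charge and acid made by the phagocyte NADPH oxidase. Trpm2 is a cation channel opened by ADP-ribose, which forms under oxidative stress, and Trpv2 is a cation channel linked to phagocytosis.

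Genomic positions below are those of GENCODE M21 on GRCm38, found by identifier, since the sources used here do not name the build behind the counts. Each gene is given from its first to its last annotated base, all exons and introns included. Kcnk13 lies on the plus strand at chr12:99964499-100062682, Kcnk6 on the minus strand at chr7:29221926-29232515, Kcnj2 on the plus strand at chr11:111066164-111076821 and Kcna3 on the plus strand at chr3:107036169-107038070. Kcnn4 lies on the plus strand at chr7:24370263-24386690, Hvcn1 on the plus strand at chr5:122206804-122242297, Trpm2 on the minus strand at chr10:77907722-77970563 and Trpv2 on the plus strand at chr11:62574486-62600515. Hvcn1 is overlapped on the opposite strand by Tctn1, which had 1760 counts over the 20 libraries used against 23038 for Hvcn1. Kcna3 lies within the span of the antisense gene Gm27008, which had 74 counts against 2246 for Kcna3. Whether counting used strand is also not named there, so reads of these overlapping genes cannot be told apart from those of the 2 channels.

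The RefSeq promoter table on GRCm38.p6 held 6 of the 8 genes. Kcnk6 and Hvcn1 are named only. Shown are the 250 bases before the start of Kcna3, the channel with the largest change, of Kcnk13, which changed little, and of Trpv2, the one promoter that held any of the motifs searched (first of its 3 entries). All 3 are on the plus strand, at chr3:107035912-107036161, chr12:99964249-99964498 and chr11:62574236-62574485, and capitals mark motif matches.
Kcna3: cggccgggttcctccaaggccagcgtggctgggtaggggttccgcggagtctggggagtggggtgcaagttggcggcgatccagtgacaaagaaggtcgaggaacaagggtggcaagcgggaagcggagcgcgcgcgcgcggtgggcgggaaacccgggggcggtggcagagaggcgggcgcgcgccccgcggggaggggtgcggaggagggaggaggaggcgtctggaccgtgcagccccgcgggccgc
Kcnk13: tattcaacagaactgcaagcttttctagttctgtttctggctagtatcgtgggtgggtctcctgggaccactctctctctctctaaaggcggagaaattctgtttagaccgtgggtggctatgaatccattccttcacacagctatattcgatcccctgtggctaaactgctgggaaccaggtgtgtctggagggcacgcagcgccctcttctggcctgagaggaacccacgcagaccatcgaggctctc
Trpv2: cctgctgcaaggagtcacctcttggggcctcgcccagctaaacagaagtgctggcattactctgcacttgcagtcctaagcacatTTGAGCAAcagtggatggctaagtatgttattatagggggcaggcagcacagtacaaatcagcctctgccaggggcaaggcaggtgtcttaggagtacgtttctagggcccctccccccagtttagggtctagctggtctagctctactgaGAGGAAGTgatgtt
Motifs were searched on both strands in the 6 promoters, and each share is that of 32536 RefSeq promoters of the same length that hold a match. They were the PU.1-type GAGGAAGT (2.45%), the NF-kB-type GGGA and TCC with 3 free bases between them (3.87%), the interferon response-type GAAA and GAAA with 2 free bases between them (2.98%), the AP-1-type TGANTCA (6.73%) and the C/EBP-type TTGCNNAA (9.57%). PU.1 is the lineage factor of macrophages, and the others are bound by factors that act in inflammation. In Trpv2 the PU.1-type match began 14 bases before the start, and a C/EBP-type match on the minus strand, read as TTGAGCAA on the plus strand, began 165 bases before it. These matches do not overlap, and a match is a description of letters and not of a bound site. The other 5 promoters held no match to these letters in this window. The Kcna3 promoter was the richest in G and C of the 6, at 74.4%, against 52.8% for Kcnk13, 53.2% for Trpv2 and a median of 52.4% over all promoters in the table.

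The first question is which of these channels resting striatal microglia express, and at what level. Levels are counts per 1000000 counts of the scaled library (CPM), divided by merged exon length in kilobases to allow for gene length. The order so obtained depends on the annotated lengths, which were 12.46 kb for Trpm2 and 1.90 kb for Kcna3. By mean CPM alone Trpm2 (76.4) stood above Hvcn1 (44.5) in control saline libraries. Per kb, the potassium channel Kcnk6 led in control saline libraries at 38.7 ± 2.95 CPM per kb (SD, n = 6). It was also the highest of 58 listed potassium channel genes and subunits and the second of 173 listed channel, pump and exchanger genes. Hvcn1 followed at 12.5 ± 3.21, Kcnk13 at 8.99 ± 1.42, Trpm2 at 6.13 ± 1.34, Trpv2 at 5.71 ± 1.09 and Kcnj2 at 3.45 ± 0.951 CPM per kb (SD, n = 6 each). Kcna3 at 0.337 ± 0.203 and Kcnn4 at 0.0833 ± 0.0922 CPM per kb (SD, n = 6 each) were the lowest.

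Only some steps of this order exceeded the spread between libraries. The lowest Kcnk6 value, 35.3 CPM per kb, was above the highest Hvcn1 value, 17. From Hvcn1 down to Kcnj2 the ranges of neighbours overlapped at every step. The next gap was between Kcnj2, whose lowest library stood at 1.91 CPM per kb, and Kcna3, whose highest stood at 0.712. The ranges of Kcna3 and Kcnn4 overlapped.

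After LPS the order of means changed at its top, at Kcna3 and at Trpm2, which stood at 4.32 ± 1.72 CPM per kb (SD, n = 5), below Trpv2 and Kcnj2, with overlapping ranges. In control LPS libraries Hvcn1 stood at 27.7 ± 3.59 and Kcnk6 at 23.5 ± 2.19 CPM per kb (SD, n = 5 each), with overlapping ranges, and Kcnk13 at 11.6 ± 1.08. Kcna3 moved from place 76 to place 13 among the 173 listed genes and from place 13 to place 3 among the 58 potassium channel genes, at 9.44 ± 3.37 CPM per kb (SD, n = 5), and its range of 6.70 to 15.2 overlapped that of Kcnk13, 10.6 to 13.3. Its lowest library, at 6.70 CPM per kb, was above the highest Trpv2 library, at 6.45. Kcnn4 stayed last of the 8 at 0.0981 ± 0.0379 CPM per kb (SD, n = 5). In the MIA groups the order of means was the same after saline except that Trpv2 stood above Trpm2, and the same as in control offspring after LPS.

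**Figure D1:**
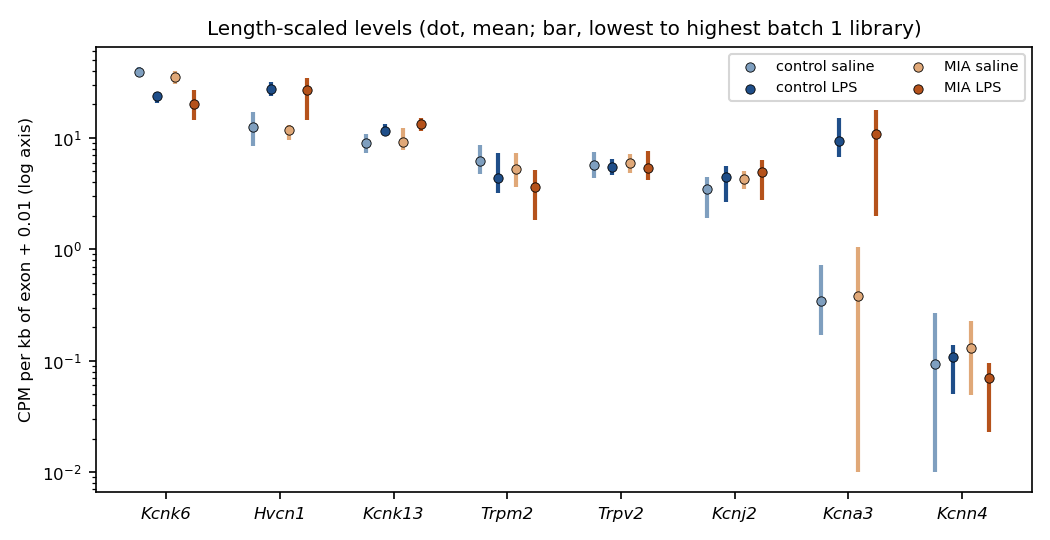
Level of each channel on a log axis, in CPM per kb of merged exon plus 0.01 so that libraries at 0 can be drawn, in the 4 groups. Dots are means and bars run from the lowest to the highest batch 1 library (6, 5, 5 and 3 libraries). Kcnk6 leads after saline at 38.7 CPM per kb in control offspring, Kcna3 lies near Kcnn4 after saline and near Kcnk13 after LPS, and Kcnn4 stays lowest.

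The next comparison asked which channels changed in control offspring 18 hours after LPS (6 saline and 5 LPS libraries). Kcna3 rose about 28-fold and Hvcn1 about 2-fold, Kcnk6 fell to 0.608 of its saline level, and Kcnk13 rose by a small step. Kcnj2, Kcnn4, Trpm2 and Trpv2 did not pass the test. That makes 3 channels higher, 1 lower and 4 not called (edgeR quasi-likelihood test, called where the Benjamini-Hochberg adjusted p is under 0.05). Over all 14741 genes 44.6% were called in this comparison, 23.3% higher and 21.3% lower, so 4 of 8 (50.0%) is near the background and is not a result about the channels as a set. By DESeq2 the calls were 2 higher and 2 lower. The median log2 fold change of the 8 was 0.33, against -0.00 over all genes tested.

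Kcna3 had the largest change. Its CPM in the 6 control saline libraries ran from 0.307 through a median of 0.529 to 1.36, and in the 5 control LPS libraries, replicates 1 to 5, it was 16.7, 14.3, 29.0, 17 and 12.7. Every LPS library was above every saline library. The means were 0.640 ± 0.386 (SD, n = 6) and 17.9 ± 6.41 CPM (SD, n = 5), 28.0 times higher, with a log2 fold change of 4.73 ± 0.58 (SE) and an edgeR adjusted p of 2.08e-06. The 6 saline libraries together held 61 counts of this gene, so its saline level is known with less precision than its LPS level.

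Hvcn1, the proton channel, rose from 44.5 ± 11.4 CPM (SD, n = 6) to 98.6 ± 12.8 CPM (SD, n = 5). Control saline libraries ran from 30.3 through a median of 40.3 to 60.6 CPM. The LPS libraries stood at 86.7, 113.4, 85.2, 98.3 and 109.3 CPM, all above the highest saline library. The log2 fold change was 1.15 ± 0.18 (SE, edgeR adjusted p = 1.37e-05), with a 95% interval of 0.77 to 1.52.

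Kcnk6, the most abundant of the potassium channels after saline, went the other way. Its control saline libraries ran from 146.7 through a median of 160.8 to 178.6 CPM and its LPS libraries stood at 104.5, 91.9, 106.9, 85.0 and 99.4 CPM. All LPS libraries were below all saline libraries. The log2 fold change was -0.72 ± 0.13 (SE, edgeR adjusted p = 5.59e-05), with a 95% interval of -0.98 to -0.45. In RNA from a sorted population, fewer cells that express a gene and less RNA of it per cell cannot be told apart.

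Kcnk13, the channel of resting surveillance, did not fall with the resting marker genes. It stood at 22.5 to 33.7 CPM (median 27.3) after saline and at 36.9, 41.5, 35.5, 32.9 and 33.8 CPM after LPS. One LPS library, at 32.9 CPM, lay within the saline range, so the groups overlapped. The log2 fold change was 0.37 ± 0.14 (SE, edgeR adjusted p = 0.0297). This call is not firm: the adjusted p was 0.0681 with RLE scaling, 0.0755 with upper quartile scaling, 0.0694 by DESeq2 and 0.385 without the batch term. It also missed the threshold without control LPS replicate 2 (0.0809) or 3 (0.0564) and without control saline replicate 2 (0.0671), 3 (0.0665) or 6 (0.0511).

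Of the 8, 2 channels had non-overlapping higher groups (Kcna3 and Hvcn1) and 1 a non-overlapping lower group (Kcnk6). Over all genes the groups did not overlap for 28.9%, 15.1% higher and 13.9% lower.

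The other 4 channels had overlapping groups and gave no call. Kcnj2 stood at 18.8 ± 5.17 CPM (SD, n = 6) and 24.4 ± 6.22 CPM (SD, n = 5), a log2 fold change of 0.38 with a 95% interval of -0.07 to 0.83. Trpv2 stood at 25.6 ± 4.87 and 24.8 ± 2.90 CPM, with a log2 fold change of -0.05 and a 95% interval of -0.38 to 0.28, the narrowest of the 4. Both bounds for Trpv2 are smaller in size than the change of Hvcn1 given above.

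Trpm2 stood at 59.4 to 108.1 CPM after saline and at 52.7, 41.2, 91.2, 39.5 and 44.6 CPM after LPS, with 4 of 5 LPS libraries below every saline library and replicate 3 above 5 of the 6. Its log2 fold change was -0.51 ± 0.26 (SE, edgeR adjusted p = 0.122). Without that replicate it was -0.80 (edgeR adjusted p = 0.00919), and it was called lower by DESeq2 at -0.58 (adjusted p = 0.0371), by limma-voom with sample weights at -0.61 (adjusted p = 0.0145) and by limma-voom with correlation within ID numbers at -0.55 (adjusted p = 0.0469). The Trpm2 call thus depends on 1 library and on the tool.

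Kcnn4 was at the edge of detection, with 0 to 17 counts in each control library. It was at 0 in control saline replicate 5, where 3 counts would equal 0.175 CPM, and at 1.32 CPM in control saline replicate 6. The 95% interval of its log2 fold change, -1.10 to 1.68, covers more than a 2-fold change in either direction, so a change of that size was not detectable at this depth. Such floors cover counting error only, since the labels mention no molecular identifiers.

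**Figure D2:**
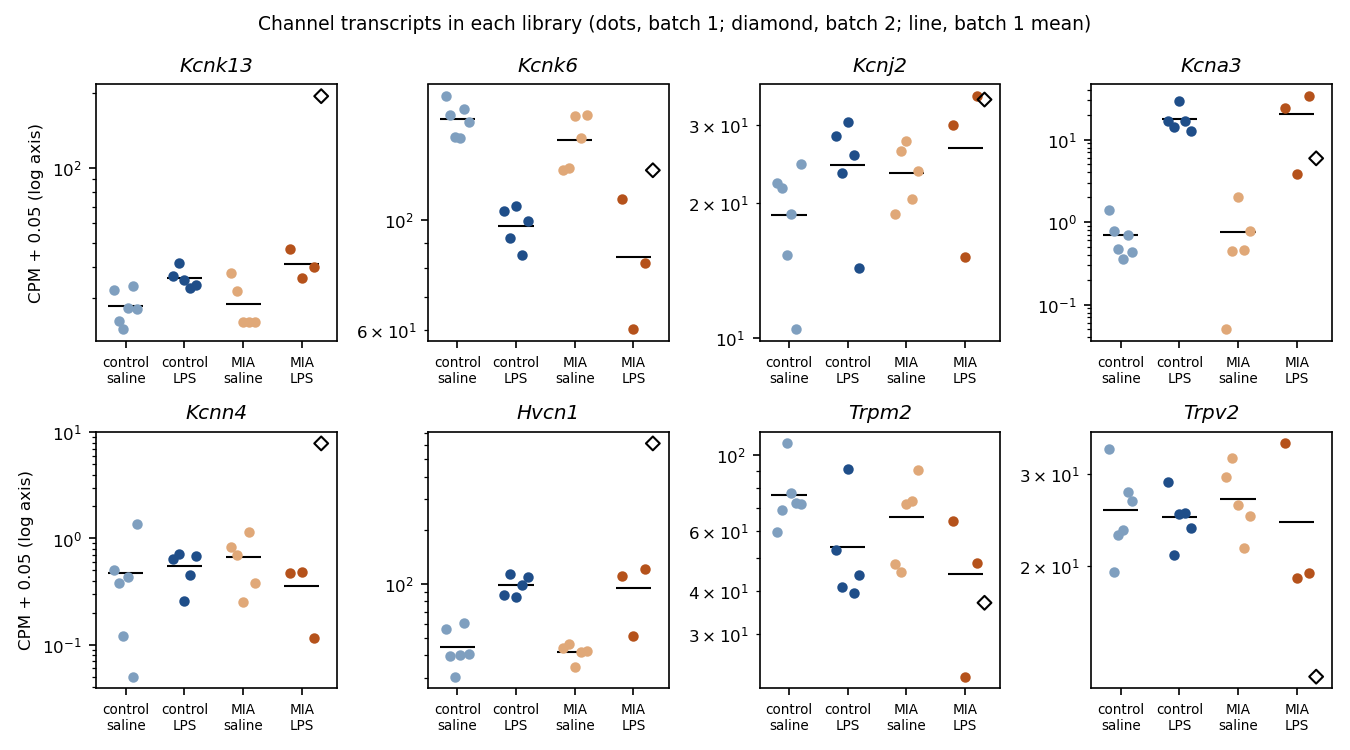
TMM-scaled CPM plus 0.05 of each channel in every library used, on log axes that differ between panels. Dots are batch 1 libraries, lines their group means and diamonds the batch 2 library, MIA LPS replicate 4. Kcna3 and Hvcn1 separate LPS from saline upward and Kcnk6 downward in batch 1 libraries, while the batch 2 library reads 193.7 CPM for Kcnk13 and 613.5 CPM for Hvcn1.

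The same comparison in MIA offspring used 5 saline and 3 LPS libraries of batch 1. The same 4 channels were called with the same directions: Kcna3, Hvcn1 and Kcnk13 higher and Kcnk6 lower. Over all genes 39.1% were called, 20.8% higher and 18.3% lower, so 4 of 8 is again near the background, and the median log2 fold change of the 8 was 0.02, as it was over all genes (0.02). Groups did not overlap for Kcna3 and Hvcn1 (higher) and Kcnk6 (lower), against 36.5% of all genes, 18.5% higher and 18.0% lower.

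Kcna3 stood at 0, 0.402, 1.96, 0.413 and 0.733 CPM in MIA saline replicates 1 to 5 and at 24.2, 3.76 and 33.6 CPM in MIA LPS replicates 1 to 3. The value of 0 in MIA saline replicate 1 allows up to 0.263 CPM (3 counts). All 3 LPS libraries were above all saline libraries, with replicate 2 far below the other two. The log2 fold change was 4.79 ± 0.66 (SE, edgeR adjusted p = 1.09e-05). It was 5.63 without MIA saline replicate 3 and 4.24 without MIA LPS replicate 3.

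Hvcn1 stood at 43.7, 46.4, 34.2, 41.5 and 42.2 CPM after saline and at 111.6, 51.3 and 121.4 CPM after LPS. MIA LPS replicate 2 was again the low one, still above the highest saline library. This gave a log2 fold change of 1.19 ± 0.22 (SE, edgeR adjusted p = 9.47e-05).

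Kcnk6 stood at 126.2, 127.5, 162.4, 147.0 and 163.7 CPM after saline and at 110.3, 60.0 and 81.8 CPM after LPS. Every LPS library was below every saline library, and replicate 2 was the lowest here too. On the log2 scale the difference was -0.79 ± 0.16 (SE, edgeR adjusted p = 0.000253).

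Kcnk13 stood at 38.0, 32.2, 24.0, 24.2 and 24.2 CPM after saline and at 47.3, 36.2 and 40.1 CPM after LPS. The lowest LPS library lay below the highest saline library, so the groups overlapped. The log2 fold change was 0.53 ± 0.16 (SE, edgeR adjusted p = 0.0108), and without MIA LPS replicate 1 it was 0.42 with an adjusted p of 0.0732.

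The remaining channels overlapped and were not called. Trpm2 stood at -0.55 ± 0.32 (log2 fold change ± SE, edgeR adjusted p = 0.182), with the lowest of all batch 1 values, 22.5 CPM, in MIA LPS replicate 2. Kcnj2 stood at 0.18 ± 0.26 (edgeR adjusted p = 0.615), Trpv2 at -0.15 ± 0.19 (edgeR adjusted p = 0.572) and Kcnn4 at -0.99 ± 0.87 (edgeR adjusted p = 0.391).

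The batch 2 library, MIA LPS replicate 4, read differently from these 3. It held 613.5 CPM of Hvcn1 against at most 121.4 in the batch 1 MIA LPS libraries, 193.7 CPM of Kcnk13 against at most 47.3, and 7.80 CPM of Kcnn4 against at most 0.434. Its Kcna3, at 5.88 CPM, lay between MIA LPS replicate 2 and the other two. Without the batch term, which lets this library in, the MIA log2 fold change became 2.43 for Hvcn1, 1.47 for Kcnk13 and 1.78 for Kcnn4, and no call among the 8 changed. Batch and library cannot be told apart here.

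Summed markers of several other cell types differed between saline and LPS libraries and are given beside the channel results. The summed level of 7 monocyte markers ran from 3.80 to 6.41 CPM in control saline and from 38.8 to 79.9 CPM in control LPS libraries, and from 2.81 to 5.94 and 36.1 to 61.1 CPM in MIA offspring. Of these 7, 6 rose and 1, Ccr2, the chemokine receptor of classical monocytes, fell in each maternal group. Of 10 neutrophil markers, 7 were measured, of which 5 rose and 1 fell in control and 6 rose and 1 fell in MIA offspring. Over all genes tested 23.3% were called higher and 21.3% lower in control offspring, and 20.8% and 18.3% in MIA offspring.

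The summed level of the neutrophil markers was 157.4 to 231.1 CPM in control saline and 107.9 to 170.3 CPM in control LPS libraries, and most of it was Csf3r, the one that fell. In MIA offspring it was 172.2 to 196.0 CPM after saline and 96.4 to 187.2 CPM after LPS. Among control LPS libraries the monocyte sum was highest in replicate 3 (79.9 CPM), where Kcna3 was highest and Hvcn1 lowest, and lowest in replicate 2 (38.8 CPM), where Hvcn1 was highest. Among batch 1 MIA LPS libraries it was lowest in replicate 2 (36.1 CPM), where both channels were lowest, and highest in replicate 1 (61.1 CPM), while both channels were highest in replicate 3 (59.5 CPM). The batch 2 library had the highest sums of all, 125.2 CPM of monocyte and 402.4 CPM of neutrophil markers, with Kcna3 at 5.88 CPM and Hvcn1 at 613.5 CPM. The neutrophil markers Mpo, Elane and Retnlg were at 0 in all control saline libraries. The part of these cells, or of such transcripts within microglia, in the channel results was not tested. For T and NK cells, which are known for Kcna3, the sum of 8 markers was at most 0.268 CPM in control LPS and at most 0.330 CPM in batch 1 MIA LPS libraries. Cd3e, Cd3g, Trac, Cd2 and Nkg7 were at 0 in all 4 groups.

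Other sums were lower after LPS. That of 6 B cell markers was 58.5 to 91.6 CPM in control saline and 22.7 to 26.3 CPM in control LPS libraries, and 67.5 to 108.1 and 19.0 to 36.1 CPM in MIA offspring. That of 6 endothelial and mural markers was 22.4 to 32.9 CPM after saline and 9.37 to 14.6 CPM after LPS in control offspring, and at most 15.0 CPM after LPS in MIA offspring, where no saline library was as low. For 7 astrocyte markers it was 173.5 to 266.8 and 108.2 to 149.3 CPM in control offspring, without overlap, and 168.2 to 257.0 and 130.1 to 226.3 CPM in MIA offspring, with overlap. A lower sum is not a fall of every marker. Of the astrocyte markers 6 were measured, of which 1 rose and 1 fell in each maternal group. Of 5 measured endothelial and mural markers 2 fell and 0 rose in each, and of 2 measured B cell markers 1 fell and 0 rose. The part of these cell types in the Kcnk6 result was not tested either.

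**Figure D3:**
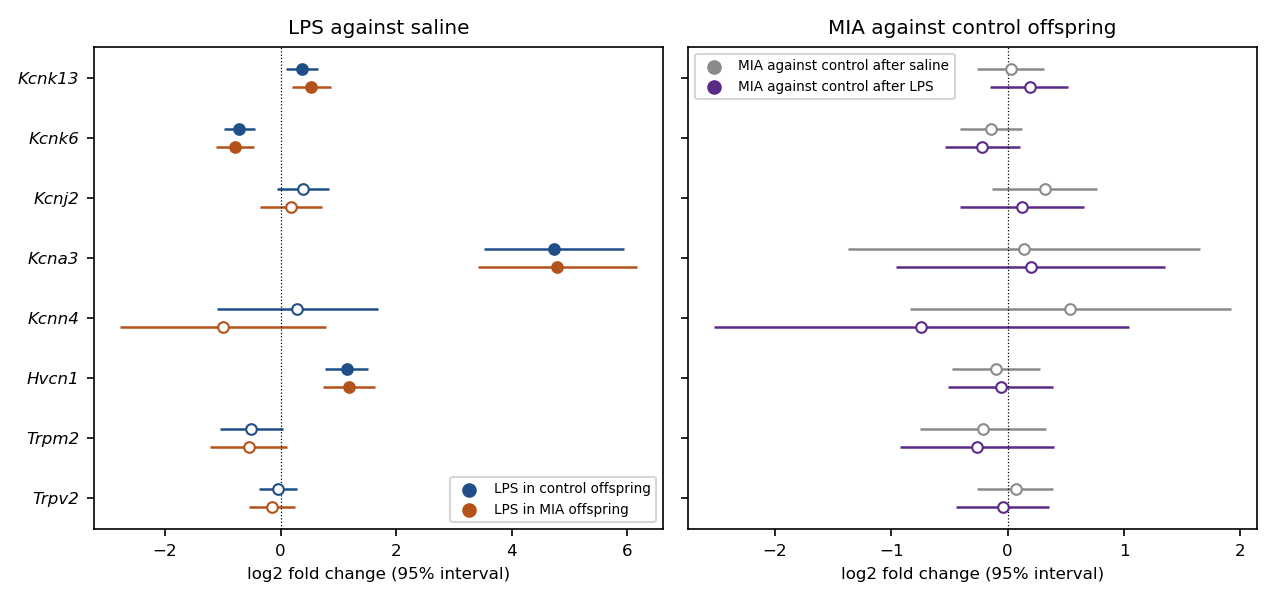
Log2 fold change of each channel with its 95% interval, LPS against saline on the left and MIA against control offspring on the right, on linear axes of different range. Filled dots passed the test (edgeR adjusted p under 0.05) and open dots did not. Kcna3, Hvcn1, Kcnk6 and Kcnk13 are filled on the left in both maternal groups and no dot is filled on the right.

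Whether maternal immune activation altered the channels was asked in 3 ways: after saline, after LPS, and as the difference between the LPS responses. None of the 8 channels was called in any of them by edgeR, and none had an unadjusted p under 0.05. Over all 14741 genes edgeR called 0 (0%) in each of the 3, and the share with an unadjusted p under 0.05 was 2.82% after saline, 5.60% after LPS and 3.34% for the difference. DESeq2 called 6 genes after saline and limma-voom with correlation within ID numbers 1 gene in the difference, none of them a channel. The groups of no channel were free of overlap, against 0.407% of all genes after saline and 2.68% after LPS. These 3 comparisons share libraries with those above and with each other, so their values are not separate evidence.

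The intervals say how large a difference could have been missed. For the difference of LPS responses, MIA minus control, the log2 value for Kcnk6 was -0.07 (95% interval -0.49 to 0.34) and for Kcnk13 0.16 (-0.28 to 0.60). For Hvcn1 it was 0.04 (-0.55 to 0.63), for Trpv2 -0.10 (-0.62 to 0.41) and for Kcnj2 -0.19 (-0.90 to 0.51). A response differing by 1 log2 unit between maternal groups, in either direction, lies outside all 5 of these intervals. The intervals treat libraries that share an ID number as independent, so they may be too narrow.

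The other 3 channels were measured less precisely. Trpm2 stood at -0.04 (-0.89 to 0.80), Kcna3 at 0.06 (-1.92 to 2.04) and Kcnn4 at -1.28 (-3.54 to 0.97). For Kcna3 a 2-fold weaker or stronger response in MIA offspring lies inside the interval.

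After saline, the MIA minus control log2 differences ran from -0.21 (Trpm2) to 0.54 (Kcnn4), with Kcnj2 at 0.32 (95% interval -0.13 to 0.77) and Kcnk6 at -0.14 (-0.41 to 0.12). Kcnk13, the channel of surveillance, differed by 0.03 (-0.26 to 0.31) between unstimulated MIA and control microglia. After LPS the differences ran from -0.74 (Kcnn4) to 0.20 (Kcna3).

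Each channel was also compared with other genes across libraries, given here as descriptions over 19 batch 1 libraries that share treatment groups and depth. The gene most like Hvcn1 in log2 CPM was Slc3a2, the heavy chain of amino acid transporters (Pearson r 0.98), followed by Pirb, an inhibitory receptor (0.97), and Mindy1 (0.96). Kcna3 was most like Slc31a2, Flna, which encodes the actin crosslinker filamin A, and Milr1 (0.96 each), and Kcnk6 like Lrrc3, Dock2 and AC102342.2 (0.96 each). Kcnk13 was most like Anapc5 (0.91), Tnfrsf1b, a TNF receptor, and Ctsb, the lysosomal protease cathepsin B (0.90 each).

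In these levels, which carry the LPS effect, the channels that were not called had looser partners. Trpm2 was most like Ube4a (0.87), Pts (0.86) and Tmem94 (0.85), Trpv2 like G6pc3 (0.83), Ilvbl and Anxa3 (0.79 each), Kcnj2 like Ranbp9 (0.73), Tmem185a (0.72) and Prepl (0.71), and Kcnn4 like Cnep1r1 (0.69), Cgrrf1 (0.63) and Mtif3 (0.62). After group means were subtracted, which removes the LPS effect, r within the 8 was highest between Kcna3 and Kcnk6 (0.74) and between Kcnk6 and Trpm2 (0.71). MIA LPS replicate 2 was the lowest batch 1 library of its group for these 3, and also for Kcnk13, Kcnj2, Hvcn1 and Trpv2, but not for Kcnn4. That library also had the highest astrocyte (226.3 CPM) and oligodendrocyte (89.4 CPM) marker sums of its group. Its part in these correlations was not tested. Kcnk13 went with Trpv2 (0.63) and Hvcn1 (0.62). Among other genes, the closest after this subtraction were Abcf3 and Nup133 for Hvcn1 and Srgap2 for Trpm2 (0.93 each), Qars and Saraf for Kcnk13 (0.90 each) and G6pc3 for Trpv2 (0.89). For the other channels they were Fam129a for Kcnk6 (0.87), Tbc1d8b for Kcnj2 (0.84), Ppp1r21 for Kcna3 (0.80) and Dnajb14 and Mospd2 for Kcnn4 (0.76 each). After the subtraction, called and uncalled channels were thus not separated by how close their partners were.

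The genes around the 8 channels were read from lists chosen by function. The counts of each list are to be read against the shares over all 14741 genes. In control offspring 44.6% were called, 23.3% higher and 21.3% lower, and in MIA offspring 39.1%, 20.8% higher and 18.3% lower. Counts near these shares are not a result about a list. The other potassium channels come first. Of 53 listed, 23 were measured, and in control offspring 4 rose and 7 fell after LPS (median log2 fold change 0.13), while in MIA offspring 5 rose and 6 fell (median -0.20). Kcnma1, the calcium-activated BK channel, fell by 2.53 on the log2 scale in control offspring (edgeR adjusted p = 0.000341). Kcnd1, the A-type channel Kv4.1, fell by 2.48, from 25.7 ± 4.68 CPM (SD, n = 6) to 4.59 ± 0.831 CPM (SD, n = 5), and Tmem175, the lysosomal potassium channel, fell by 0.47.

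Below the level of the rule for named genes, and chosen after their values were seen, are the genes of this paragraph. Kcnk12, which encodes THIK-2, the closest relative of Kcnk13, fell from 7.38 ± 2.24 CPM (SD, n = 6) to 0.691 ± 0.451 CPM (SD, n = 5) in control offspring, a log2 fold change of -3.51 ± 0.32 (SE, edgeR adjusted p = 1.87e-09). In MIA offspring it was -5.43 ± 0.49 (SE, edgeR adjusted p = 2.42e-09). The groups did not overlap in either, whereas Kcnk13 itself was slightly higher. Kcnq3, a subunit of the M-current channel, rose by a log2 fold change of 3.85 and Kcnj9, the G protein-gated channel GIRK3, fell by 4.59. Kcnj9 reached at most 0.134 CPM in control and 0.507 CPM in batch 1 MIA LPS libraries. It thus passed the filter, whose level was 0.733 CPM, through its saline libraries. The other higher calls in control offspring were Kcnab1 and Kcnab3, beta subunits of voltage-gated channels, and Tmem38a, and in MIA offspring Kcnab1, Kcnab3, Kcnj10 and Tmem38b.

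Among 26 other TRP and mucolipin channels, 9 were measured, with 1 higher and 4 lower in control offspring (median -0.09) and 1 higher and 3 lower in MIA offspring (median -0.15). Trpm4, a calcium-activated cation channel, stood at -0.66 and Pkd2, polycystin 2, at -0.62 in control offspring (edgeR adjusted p = 0.0164 and 0.00269). The Trpm4 call was lost without control LPS replicate 2 (adjusted p = 0.0556) or 4 (0.0589), and Pkd2 in MIA offspring without MIA LPS replicate 1 (0.165) or 3 (0.111). Named after their values were seen are Trpm5 and Pkd2l2, the other lower calls in control offspring, at -1.81 and -1.63, of which Pkd2l2 was not called in MIA offspring (-0.66, edgeR adjusted p = 0.245). The single gene that rose was Trpc4, from 0.0719 ± 0.118 CPM (SD, n = 6) to 7.76 ± 2.22 CPM (SD, n = 5), also named after its values were seen. Its saline libraries reached at most 0.278 CPM in control and 0.135 CPM in MIA offspring, below the filter level of 0.733 CPM. Trpc4 was thus among the measured genes only through its LPS libraries.

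Of 33 calcium entry and release genes, 25 were measured, with 7 higher and 5 lower in control offspring and 7 higher and 3 lower in MIA offspring (median -0.23 in each). The endolysosomal channels Tpcn1 and Tpcn2 moved in opposite directions. Tpcn2 rose from 11.4 ± 2.17 to 52.3 ± 5.65 CPM, and Tpcn1 fell from 36.5 ± 3.50 to 9.25 ± 2.11 CPM (SD, n = 6 and 5). Cacna1d, a voltage-gated calcium channel, rose by a log2 fold change of 1.52 and Itpr3, a calcium release channel, by 1.43. Further lower calls, named after their values were seen, were P2rx7, Itpr2 and Cacna1a in control offspring and P2rx7 and Cacna1a in MIA offspring.

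Chloride and volume-regulated channels were measured for 22 of 27 genes, with 9 higher and 3 lower in control offspring (median 0.14) and 8 higher and 2 lower in MIA offspring (median 0.19). Clic4 rose by a log2 fold change of 2.36, Panx1, the ATP release channel pannexin 1, by 1.14 and Lrrc8a, the obligatory subunit of the volume-regulated anion channel, by 0.87. Tmem206, also known as Pacc1, the proton-activated chloride channel, fell by 0.86. The other lower calls, named after their values were seen, were Ttyh1 and Ttyh3 in control and Clcn4 in MIA offspring.

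Of 26 sodium and proton channels, exchangers and pumps, 14 were measured, with 5 higher and 4 lower in each maternal group. Slc9a9 and Slc9a7, sodium-proton exchangers of endosomes and the Golgi, fell by 2.64 and 2.14 on the log2 scale in control offspring. Slc8a1, the sodium-calcium exchanger, fell by 0.95. Among further calls, named after their values were seen, Slc9a5, Slc9a8 and Atp1b3 were higher and Slc4a7 lower in both maternal groups.

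The genes that the channels are known to work with were read the same way, against the same shares over all genes. For Hvcn1 these are the 8 NADPH oxidase genes, all measured, of which 4 rose and 1 fell in each maternal group (median 0.58 in control and 0.61 in MIA offspring). Cybb, the catalytic subunit NOX2, rose from 3.08 ± 1.45 CPM (SD, n = 6) to 109.2 ± 80.2 CPM (SD, n = 5), a log2 fold change of 5.13 (edgeR adjusted p = 2.65e-07). Ncf1 rose by 0.92, Cyba by 0.79 and Rac2 by 0.58. In MIA offspring the calls of Ncf1, Cyba and Rac2 were lost when MIA LPS replicate 1 or 3 was left out, where the lowest log2 fold changes were 0.52, 0.45 and 0.40, and that of Rac2 also without MIA saline replicate 3 (0.52) or 5 (0.55).

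For Trpm2, of 10 genes that make or break down ADP-ribose, 9 were measured, with 2 higher and 1 lower in each maternal group. Cd38, the enzyme that makes cyclic and linear ADP-ribose, rose from 1.35 ± 0.725 to 17.3 ± 7.11 CPM (SD, n = 6 and 5), a log2 fold change of 3.66 (edgeR adjusted p = 1.28e-05). Its relative Bst1, named after its values were seen, went from 0.0890 ± 0.186 to 2.63 ± 1.64 CPM and was called higher (edgeR adjusted p = 5.66e-05). The saline mean of Bst1 lay below the filter level of 0.733 CPM, so its rise starts near the floor. Parp1, which makes ADP-ribose polymers, fell by 0.63 (edgeR adjusted p = 0.0120), and in MIA offspring its call was lost without MIA LPS replicate 2 (-0.56, adjusted p = 0.0570). Nudt9, the ADP-ribose hydrolase related to the gating domain of Trpm2, stood at -0.03 and was not called.

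For Kcna3 and Kcnn4, of 12 regulators 11 were measured, with 1 higher and 3 lower in control and 3 higher and 2 lower in MIA offspring. Nme2, the kinase that activates KCa3.1 by histidine phosphorylation, rose by a log2 fold change of 1.79. Calm2, one of the calmodulin genes, fell by 1.22, and Nedd4l, a ubiquitin ligase, by 0.81. Named after their values were seen are Pik3c2b, lower in both maternal groups, and Calm3, called higher in MIA offspring. Nedd4l was not called in MIA offspring (-0.57, edgeR adjusted p = 0.0636), but was with RLE scaling (0.0411), upper quartile scaling (0.0347) and DESeq2 (0.0330).

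Potassium loss through channels such as those of Kcnk13 and Kcnk6 is read by NLRP3, and all 8 genes of that list were measured, 3 higher and 2 lower in control and 3 higher and 1 lower in MIA offspring (median 0.31 and 0.28). Nlrp3 went up from 116.9 ± 23.9 to 424.7 ± 96.8 CPM (SD, n = 6 and 5). For Il1b, which encodes interleukin 1 beta, the levels were 16.5 ± 6.93 and 238.2 ± 103.4 CPM, also a rise (edgeR adjusted p = 2.18e-06). The third gene that rose was Casp1, which encodes caspase 1, named after its values were seen. P2rx7, whose receptor works with TWIK-2, fell as Kcnk6 did, by 0.91 on the log2 scale (edgeR adjusted p = 2.23e-05), and Nek7, the NLRP3 partner kinase, fell by 0.68 in control offspring. In MIA offspring Nek7 stood at -0.22 and was not called (edgeR adjusted p = 0.517), but it was called at -0.83 without MIA LPS replicate 2 (adjusted p = 0.000996).

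**Figure D4:**
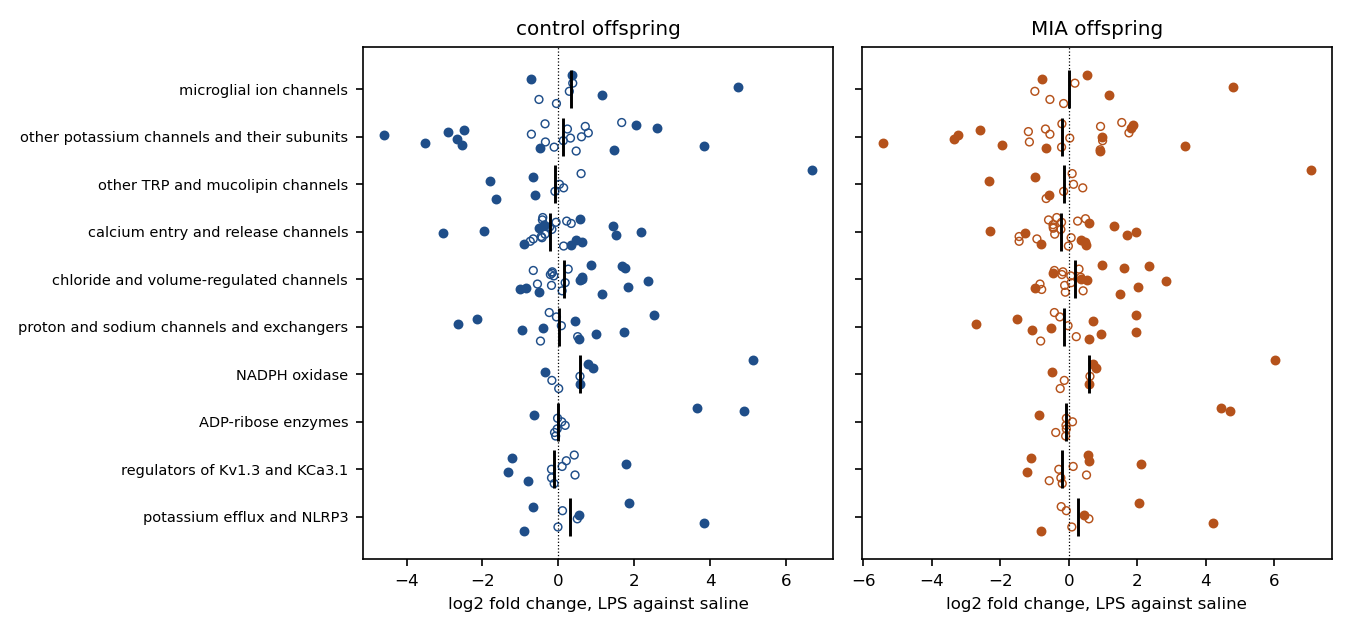
Log2 fold change, LPS against saline, of the 8 channels (top) and of each measured gene in 9 further lists, in control (left) and MIA offspring (right). Filled dots passed the test, open dots did not, black bars are list medians, and the vertical position within a list has no meaning. Medians lie between -0.23 and 0.61, and each of the 10 sets holds genes that rose beside genes that fell.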

How the data were processed

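The deposited values are estimated counts per gene, made by the authors. The submitters' processing notes name RSEM, STAR and DESeq2 without roles, and build, annotation and strand setting were not given in the sources used here. Libraries followed a modified Smart-Seq2 protocol with oligo-dT priming, per the labels' protocols. Of all values 6.27% were not whole, and counts were rounded. Identifiers of 55227 genes matched GENCODE M21 without version and 260 did not. One ribosomal RNA gene, CT010467.1, held 48.03% of counts on average. No replicate pair agreed within sampling noise (lowest chi-square per degree of freedom 9.58 over 41 pairs).

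Genes were kept by edgeR's filterByExpr (minimum count 10, minimum total 15), leaving 14741. TMM scaling and edgeR 4.0.16 (R 4.3.3) quasi-likelihood tests with terms for group and batch used 20 libraries, with Benjamini-Hochberg adjustment over all genes tested and a threshold of 0.05. CPM are TMM-scaled, and standard errors were derived from the F statistic. The fit was tested on simulated data. Alternatives used limma 3.58.1, DESeq2 1.42.0, other scalings and filters, a replicate block and leaving out each library.

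Members and lists were chosen with earlier results of these data known. Named are the 8 channels and, from each list, up to 4 genes called after LPS in control offspring with the largest change and a mean log2 CPM of at least 3. Also named are the 3 genes of highest Pearson r with each channel, of which the text gives those closest, and genes said to be named after their values were seen. Results of some genes in the lists are not reported here by name.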

Additional observations from a re-analysis of the deposited data

Results flagged for a closer look

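In 7 of 32 sets of values (8 channels in 4 groups, with MIA LPS replicate 4 included) 1 library lay far from the others of its group. Chance alone would flag about 1 in 20 sets of independent, normally distributed values. These sets share libraries, and the MIA LPS sets mix 2 batches, so their number cannot be set against that rate. Of the 7 flagged sets, 3 are in MIA LPS replicate 4, the batch 2 library. It had 193.7 CPM of Kcnk13 (others 36.2 to 47.3), 7.80 CPM of Kcnn4 (others 0.0660 to 0.434) and 613.5 CPM of Hvcn1 (others 51.3 to 121.4). Control LPS replicate 3 was high for 2 channels, with 29.0 CPM of Kcna3 (others 12.7 to 17) and 91.2 CPM of Trpm2 (others 39.5 to 52.7). Control saline replicate 3 had 108.1 CPM of Trpm2 (others 59.4 to 77.5), and control saline replicate 6 had 1.32 CPM of Kcnn4 (others 0 to 0.452).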

How the results depend on the processing

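The calls of Kcna3, Hvcn1 and Kcnk6 after LPS held in both maternal groups under all 10 other settings and when each of 19 libraries was left out. Leaving out 1 library gave log2 fold changes of 4.48 to 5.11, 1.06 to 1.25 and -0.78 to -0.67 in control offspring and 4.24 to 5.63, 0.97 to 1.49 and -1.04 to -0.60 in MIA offspring. Kcnk13 and Trpm2 changed calls as given above. Low counts limit Kcnn4 and the saline level of Kcna3. Without MIA saline replicate 4, Kcnn4 did not pass the filter on low counts and so was not tested.

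Signs changed only for values that were not called, and the cause was not tested. With a replicate block, Kcnj2 was -0.01 after LPS in MIA offspring and -0.01 for MIA against control after LPS, and Kcna3 was -0.17 for the difference of responses, -0.10 between saline groups (MIA minus control) and -0.27 between LPS groups; the MIA call of Rac2 was lost (0.52, adjusted p = 0.0760). The block called 6298 and 5535 genes after LPS in control and MIA offspring, 4 and 4 of them channels. Replicate numbers do not pair the samples: deviations of same-numbered libraries correlated at -0.14 to 0.22 (24 pairs), and 7 of 19 libraries correlated best with their own number.

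With the batch term dropped, Kcnn4 was 1.78 after LPS in MIA offspring, 1.50 for the difference and 2.03 for MIA against control after LPS. Likewise Kcnk6 was 0.10 and Kcna3 -0.22 for the difference, and Kcna3 was -0.08 and Hvcn1 1.18 for MIA against control after LPS. That setting also ended the control calls of Parp1, Trpm4 and Nedd4l (adjusted p 0.0872, 0.0899 and 0.0944) and the MIA call of Parp1 (0.478). With limma-voom and sample weights the difference was 0.03 for Kcnk6, 0.11 for Kcnj2 and 0.22 for Trpm2, and MIA against control was -0.32 for Kcna3 after saline and 0.12 for Hvcn1 and 0.04 for Trpm2 after LPS. With limma-voom and correlation within ID numbers, Hvcn1 was -0.07 for the difference, Kcnk13 -0.01 and Kcna3 -0.33 after saline and Kcna3 -0.21 after LPS. The same tool called 1 gene for the difference, and DESeq2 called 6 for MIA against control after saline.

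Leaving out 1 library changed further signs. After LPS the range was -0.12 to 0.04 for Trpv2 in control offspring, and -0.06 to 0.47 for Kcnj2 and -0.83 to 0.05 for Nek7 in MIA offspring. For the difference it was -0.32 to 0.12 (Kcnk6), -0.43 to 0.09 (Kcnj2), -0.50 to 0.89 (Kcna3), -0.18 to 0.34 (Hvcn1), -0.39 to 0.28 (Trpm2) and -0.44 to 0.05 (Trpv2). For MIA against control after saline it was -0.09 to 0.09 (Kcnk13), -0.69 to 0.53 (Kcna3), -0.18 to 0.01 (Hvcn1) and -0.01 to 0.16 (Trpv2), and after LPS -0.12 to 0.41 (Kcnj2), -0.36 to 0.70 (Kcna3), -0.28 to 0.24 (Hvcn1), -0.60 to 0.07 (Trpm2) and -0.38 to 0.11 (Trpv2). Over all genes it gave 0 to 2 calls for the difference (2 without MIA LPS replicate 1, 1 without control saline replicate 4) and 0 to 4 for MIA against control after LPS (4 without MIA LPS replicate 1, 3 without replicate 3).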
